A study of Homo sapiens with 16 samples.

Results

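The comparison described here is A549 cells labelled as ZC3H12A knockout against wild-type A549 cells, both grown as oncospheres. A549 is an established human lung adenocarcinoma line, and an oncosphere culture grows cells under conditions that enrich for stem-like cells. All 4 libraries of these groups were used (2 wild-type and 2 knockout) out of 16 in the series, and every gene of their table was tested, 18227 in all. Cells had been kept for 7 days in the stem-cell-enriched condition before RNA was purified. No other agent is named in the labels. The titles of the knockout-labelled libraries name 1 clone, so the effect of the edit and other properties of that clone cannot be told apart. Nothing in the labels says that the libraries of a group came from separate cultures, and the p-values measure only the spread between these libraries. For side-by-side values, the A549 normal culture (wild-type and ZC3H12A knockout, 3 days, 4 libraries) and the H2023 oncosphere culture (wild-type and ZC3H12A knockout of another non-small cell lung cancer line, 7 days, 4 libraries) were used.

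ZC3H12A encodes Regnase-1, an endoribonuclease that binds stem-loops in the untranslated ends of many inflammatory mRNAs and triggers their decay. Among its known targets are mRNAs of cytokines and chemokines, the transferrin receptor and its own mRNA. A549 cells carry an epithelial program with many genes shared with liver and gut, and they hold a constantly active NRF2 pathway.

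Levels are given in TPM, a transcript abundance that accounts for gene length and library total. Differences are knockout minus wild-type on the scale of log2(TPM + 1), where 1 stands for a doubling and low genes are understated. A gene was called when limma gave an adjusted p under 0.05 over all 18227 genes. Each library had from 14149 to 14508 genes at 1 TPM or more, and mitochondrially encoded genes took 19.5% to 23.3% of all TPM. Replicates correlated across 14547 genes at r = 0.983 (wild-type) and 0.986 (knockout), a description across genes, which are not independent. The 11 epithelial identity markers of A549 summed to between 17098.6 and 19659.9 TPM in each library, and ALDH1A1 stood at 4290.5 and 4389 TPM in the wild-type libraries and 4046 and 3931 TPM in the knockout-labelled libraries. Such a sum mostly reflects the abundant members. Of the 11, 2 were called lower and 1 higher, with differences from -3.68 (KRT19) to 0.77. Of 8 leukocyte markers 4 were in the table, with sums of 246.1 and 152.9 TPM in wild-type and 79.8 and 60.1 TPM in knockout-labelled libraries, mostly CD68 and CD14. The 4 fibroblast markers in the table summed to between 1.6 and 6.18 TPM, and the endothelial and alveolar lists had 1 member each in the table, at 6.03 TPM or less.

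ZC3H12A itself, located on chromosome 1 (37474552 to 37484379, GRCh38), was measured at 48.5 and 49.2 TPM in the wild-type libraries and 60.2 and 55.6 TPM in the knockout-labelled libraries. Both knockout-labelled libraries lay above both wild-type libraries, as they did for 32.7% of all genes. The difference of 0.24 (SE 0.10, adjusted p = 0.187) did not pass the threshold. The edited site is not resolved in a gene-level TPM value, so the label is checked neither way by this measure. In normal culture the same clone had 16.9 and 19.9 TPM against 30.7 and 34.9 TPM in wild-type cells, a difference of -0.80. The 2 A549 differences were unlike in a test of the interaction between genotype and culture (1.04, SE 0.17, adjusted p = 0.0193).

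Between the genotypes, 2413 genes were called, 13.2% of those tested: 1100 were higher in the knockout-labelled libraries (6.04%) and 1313 lower (7.2%). The changes downward were larger. At least 8-fold lower were 106 genes and at least 8-fold higher were 22, and the median fold of a called gene was 2.45 downward and 1.93 upward. Genes of liver-type and gut-type secretion, interferon response and cell junctions were found among the lowest, while matrix and some MHC class II genes were found among the highest. The MHC class II gene HLA-DMB was lower. TGF-beta pathway genes rose by smaller amounts, at most 2.03. With differences centred on the median gene, 970 genes were higher and 1427 lower. A call with 2 libraries per group needs the groups well apart, so leaving out 1 library can hardly reverse its direction. Each gene called kept its direction when any 1 library was left out, but with 3 libraries only 1 residual degree of freedom remained and 38 (without knockout replicate 1) or 0 (without any other) were called, against 4004, 3569, 4136 and 4727 genes at an unadjusted p under 0.05 without knockout replicate 1, knockout replicate 2, wild-type replicate 1 and wild-type replicate 2. In a fit that also held the A549 normal-culture libraries (the joint A549 fit), between 1786 and 2843 genes were called with 1 oncosphere library left out. These limits apply to each count below. Both knockout-labelled libraries lay above both wild-type libraries in 32.7% of all genes and below them in 27.8%. A separation given below for a gene chosen for its call is a description of its values only.

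**Figure D1:**
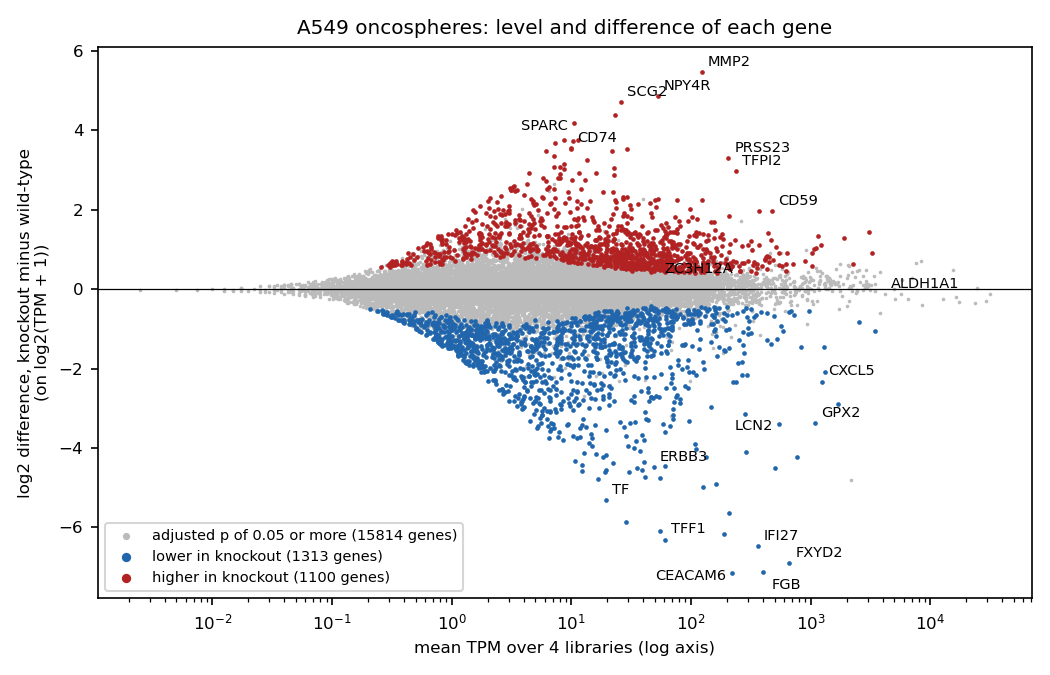
Mean level over the 4 A549 oncosphere libraries (TPM, log axis) against the log2 difference, knockout minus wild-type on log2(TPM + 1), with 1 point per gene and called genes in colour. CEACAM6, FGB and FXYD2 lie lowest and MMP2 highest, while ZC3H12A and ALDH1A1 lie near 0.

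The genes that fell furthest included several of liver and gut secretion. CEACAM6, a cell adhesion molecule of mucosal epithelia, was at 436 and 447 TPM in the wild-type libraries and 5.64 and 0.45 TPM in the knockout-labelled libraries, a difference of -7.16 (SE 0.68, adjusted p = 0.00557). FXYD2, a regulatory subunit of the sodium pump, was at 1448 and 1179.6 TPM in the wild-type libraries and 16.6 and 5.77 TPM in the knockout-labelled libraries, a difference of -6.90 (SE 0.44, adjusted p = 0.00281). TFF1, a trefoil peptide secreted with mucus, stood at 136 and 105 TPM in wild-type and 0.41 and 0.63 TPM in knockout-labelled libraries. For each of these 3 genes both wild-type libraries lay far above both knockout-labelled libraries. VIL1, an actin bundler of the brush border, fell from 131 and 87.7 to 1.14 and 0.18 TPM, and the transferrin gene TF from 38.9 and 39.4 to 0.01 and 0 TPM. The tetraspanin-like membrane protein gene TM4SF20 went from 213 and 278 to 4.54 and 9.66 TPM, and the secreted mucin MUC5AC from 249 and 378 to 15.7 and 5.33 TPM. The long non-coding RNA LINC02582 was listed at 0 in both knockout-labelled libraries and at 49.2 and 65.9 TPM in the wild-type libraries. The falls included abundant transcripts. Among genes averaging at least 200 TPM the lowest differences were those of CEACAM6, FGB, FXYD2, IFI27 and FGA.

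Further goblet-type genes were looked up after their values had been seen. The mucin MUC5B was at 2059 and 2217 TPM in the wild-type libraries and 578 and 443 TPM in the knockout-labelled libraries (difference -2.08, adjusted p = 0.00396), and AGR2, a disulfide isomerase needed for mucin folding, at 2782 and 3197 TPM in the wild-type libraries and 518 and 312 TPM in the knockout-labelled libraries (difference -2.89, adjusted p = 0.00496). Neurotensin, NTS, spanned 4469 and 3729.8 TPM in the wild-type libraries and 552 and 37.1 TPM in the knockout-labelled libraries, but the gap between the knockout-labelled libraries left the difference of -4.81 above the threshold (SE 1.19, adjusted p = 0.0585).

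Most plasma protein genes fell. Of 23 coagulation and plasma protein genes in the table, 17 were lower and 2 higher, with a median of -1.65 against 0.03 over all genes. The fibrinogen chains, which assemble into the clotting protein, had the largest changes: FGB was at 711 and 878 TPM in the wild-type libraries and 5.44 and 3.92 TPM in the knockout-labelled libraries, a difference of -7.13 (SE 0.18, adjusted p = 0.00104). FGA was at 351 and 469 TPM in the wild-type libraries and 7.74 and 6.73 TPM in the knockout-labelled libraries, and FGG at 329 and 414 TPM in the wild-type libraries and 3.48 and 4.97 TPM in the knockout-labelled libraries. The groups did not overlap for any of the 3 chains, as for 27.8% of all genes downward. Albumin, ALB, fell from 24.5 and 19.1 to 1.06 and 0.36 TPM and prothrombin, F2, from 13.2 and 11.96 to 1.19 and 0.18 TPM. The members that rose were the tissue factor pathway inhibitors TFPI and TFPI2: TFPI2 went from 31.7 and 74.6 to 256 and 586 TPM, with a difference of 2.97 (SE 0.53, adjusted p = 0.025). The summed level of the list was 2408 and 2534 TPM in wild-type and 631 and 1031 TPM in knockout-labelled libraries. Neither TFPI nor TFPI2 was called in the joint A549 fit without knockout replicate 2 or without wild-type replicate 1.

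Among 18 complement and acute-phase genes 7 were lower and 4 higher, with a median of -0.03. Lipocalin 2, LCN2, which binds bacterial siderophores, was at 1136 and 847 TPM in the wild-type libraries and 160.4 and 52.4 TPM in the knockout-labelled libraries. Complement component C5 went from 67.1 and 58.8 to 8.76 and 3.01 TPM and the C4b-binding protein gene C4BPA from 89.3 and 68.6 to 12.4 and 8.33 TPM. CD59, which blocks the membrane attack complex, moved the other way, from 214 and 173 to 680.2 and 836 TPM (1.96 (SE 0.16, adjusted p = 0.0041)). The list as a whole moved both ways. The 4 members called higher in the joint A549 fit became 2 without knockout replicate 2 or without wild-type replicate 2.

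Several transcription factors of endoderm were also called lower. Of 21 endoderm and lung factors 9 were lower and none higher (median -0.86). HNF4A, a nuclear receptor of liver and gut, was at 22.7 and 28.1 TPM in the wild-type libraries and 1.25 and 1.47 TPM in the knockout-labelled libraries, a difference of -3.48 (SE 0.19, adjusted p = 0.00248). FOXA3 fell from 14.0 and 9.35 to 1.21 and 1.14 TPM and HNF4G from 5.75 and 3.43 to 1.18 and 0.77 TPM. The groups did not overlap for any of these 3 factors, again against 27.8% of all genes downward. FOXA2 and SOX2 did not pass, at differences of -1.65 and -0.84. 

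The short sequence GTTAAT (or its reverse complement ATTAAC) was searched in promoters of 300 bases, 250 before to 50 after the first listed RefSeq start of each gene (GRCh38.p14), which matched 12356 of 18227 genes. It was found in 3.94% of all promoters, in 8.79% of the 922 promoters of genes called lower and in 3.56% of the 843 of genes called higher. Of the promoters of genes called at least 4-fold lower 14.7% held it. The coagulation and plasma protein list had it in 7 of 21 promoters. The promoters of FGA and FGB are shown as those of the fibrinogen chains whose window held a match, which that of FGG did not, from 180 bases before the start up to it and with the match in capitals. A match is a description of the letters and no evidence of binding.
FGA, chr4:154590743-154590922, minus strand: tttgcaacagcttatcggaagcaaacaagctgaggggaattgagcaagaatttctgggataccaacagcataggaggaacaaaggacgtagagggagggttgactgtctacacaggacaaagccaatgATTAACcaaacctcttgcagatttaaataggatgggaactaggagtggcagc
FGB, chr4:154562800-154562979, plus strand: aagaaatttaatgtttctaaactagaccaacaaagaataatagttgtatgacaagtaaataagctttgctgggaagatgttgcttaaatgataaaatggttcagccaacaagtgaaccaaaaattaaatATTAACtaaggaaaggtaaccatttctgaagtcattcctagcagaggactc
In FGA the match began 52 bases before the start, and in FGB 51 bases before it, both as ATTAAC on the gene's strand.

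Every interferon-stimulated gene of the list pointed down. All 45 had negative differences, 27 were called lower and none higher, and the median was -2.21. Type I and type III interferons switch these antiviral genes on through a complex that contains STAT2 and IRF9. IFI6, a membrane protein of the mitochondrion and endoplasmic reticulum, was at 2126 and 792 TPM in the wild-type libraries and 127 and 36.2 TPM in the knockout-labelled libraries (-4.23 (SE 0.71, adjusted p = 0.0214)). ISG15, a ubiquitin-like modifier, was at 843 and 261 TPM in the wild-type libraries and 47.0 and 14.6 TPM in the knockout-labelled libraries (-4.10 (SE 0.72, adjusted p = 0.0245)). The mitochondrial protein gene IFI27 was at 1162 and 264 TPM in the wild-type libraries and 17.9 and 1.07 TPM in the knockout-labelled libraries, and MX1, a dynamin-like antiviral GTPase, at 99.3 and 38.5 TPM in the wild-type libraries and 4.05 and 0.54 TPM in the knockout-labelled libraries. In 41 of the 45 both knockout-labelled libraries were below both wild-type libraries, where 27.8% of all genes had such a separation downward. The libraries within a group also differed: the first wild-type library exceeded the second in 44 of 45 of these genes, and the first knockout-labelled library exceeded the second in 42. Over all genes those counts were 9886 and 8957 of 18227. Summed over the list, the wild-type libraries held 8785 and 3651 TPM and the knockout-labelled libraries 1579 and 1348 TPM. The fit with the normal-culture libraries called 35 of them lower, and with 1 library left out of it 22 without knockout replicate 2, 26 without wild-type replicate 1, 34 without knockout replicate 1 and 43 without wild-type replicate 2.

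Upstream signalling genes were called at a rate near that of all genes, of which 7.2% were called lower and 6.04% higher. Of 26 genes for interferon sensing and signalling, IRF7 and IRF9 were lower and IFNGR1 higher. IRF7, which drives interferon gene transcription, was at 102 and 50.8 TPM in the wild-type libraries and 9.58 and 4.47 TPM in the knockout-labelled libraries (-3.27 (SE 0.44, adjusted p = 0.0122)). IRF9, the DNA-binding part of the complex, fell from 117 and 72.6 to 37.5 and 30.9 TPM. STAT2, another part of that complex, was at 71.5 and 46.2 TPM in the wild-type libraries and 36.8 and 32.5 TPM in the knockout-labelled libraries, and its difference of -0.72 did not pass (adjusted p = 0.0962). IFNGR1, a chain of the interferon-gamma receptor, was higher, at 109 and 125 TPM against 67.9 and 61.0 TPM. In the joint A549 fit 4 of the 26 were higher and 6 lower, and without wild-type replicate 2 none was higher and 7 were lower.

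For MHC class I presentation 4 of 19 genes were lower, none higher, and all 19 differences were negative (median -0.70). HLA-F went from 55.1 and 28.7 to 10.7 and 7.72 TPM, NLRC5, the class I transactivator, from 19.6 and 13.2 to 6.06 and 4.86 TPM, and the peptide transporter chains TAP1 and TAP2 from 81.3 and 43.8 and 47.4 and 32.0 TPM to 24.7 and 23.6 and 13.4 and 18.3 TPM. B2M, the light chain of class I, did not pass, with a difference of -0.42. Between 2 and 11 members were called when 1 library was left out of the fit with the normal-culture libraries, fewest without knockout replicate 2 and most without wild-type replicate 2.

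The interferon-stimulated response element (GAAA, then 2 bases of any kind, then GAAA, or the reverse complement with TTTC in place of GAAA) was found in 2.9% of all promoters, in 5.64% of promoters of genes called lower and in 2.37% of those called higher. Among the interferon-stimulated genes 23 of 36 matched promoters (63.9%) held it, and 9 of 15 of the class I genes. Members called lower and members not called had it in 14 of 22 and 9 of 14. Without the interferon and class I lists, 35 of 896 promoters of genes called lower held it (3.91%). The promoters of ISG15, IFI6 and IFI27 are shown as those of the lowest-called abundant members, from 180 bases before the start, with matches in capitals.
ISG15, chr1:1013317-1013496, plus strand: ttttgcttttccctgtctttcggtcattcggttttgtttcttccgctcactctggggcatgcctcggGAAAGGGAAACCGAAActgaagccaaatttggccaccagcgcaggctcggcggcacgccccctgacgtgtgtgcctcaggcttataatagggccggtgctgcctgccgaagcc
IFI6, chr1:27672193-27672372, minus strand: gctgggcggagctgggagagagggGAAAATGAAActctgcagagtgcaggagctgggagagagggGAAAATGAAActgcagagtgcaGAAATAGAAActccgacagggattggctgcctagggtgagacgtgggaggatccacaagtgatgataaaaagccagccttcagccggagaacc
IFI27, chr14:94110556-94110735, plus strand: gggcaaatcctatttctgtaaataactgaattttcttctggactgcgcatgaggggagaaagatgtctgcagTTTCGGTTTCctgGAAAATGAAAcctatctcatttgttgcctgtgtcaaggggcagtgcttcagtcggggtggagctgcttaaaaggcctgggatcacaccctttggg
In ISG15 the matches began 113 and 107 bases before the start and overlapped in 4 bases. IFI6 had 3 matches, at 156, 115 and 93 bases before its start. In IFI27 the matches were 108 and 95 bases before the start and the first was on the opposite strand.

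**Figure D2:**
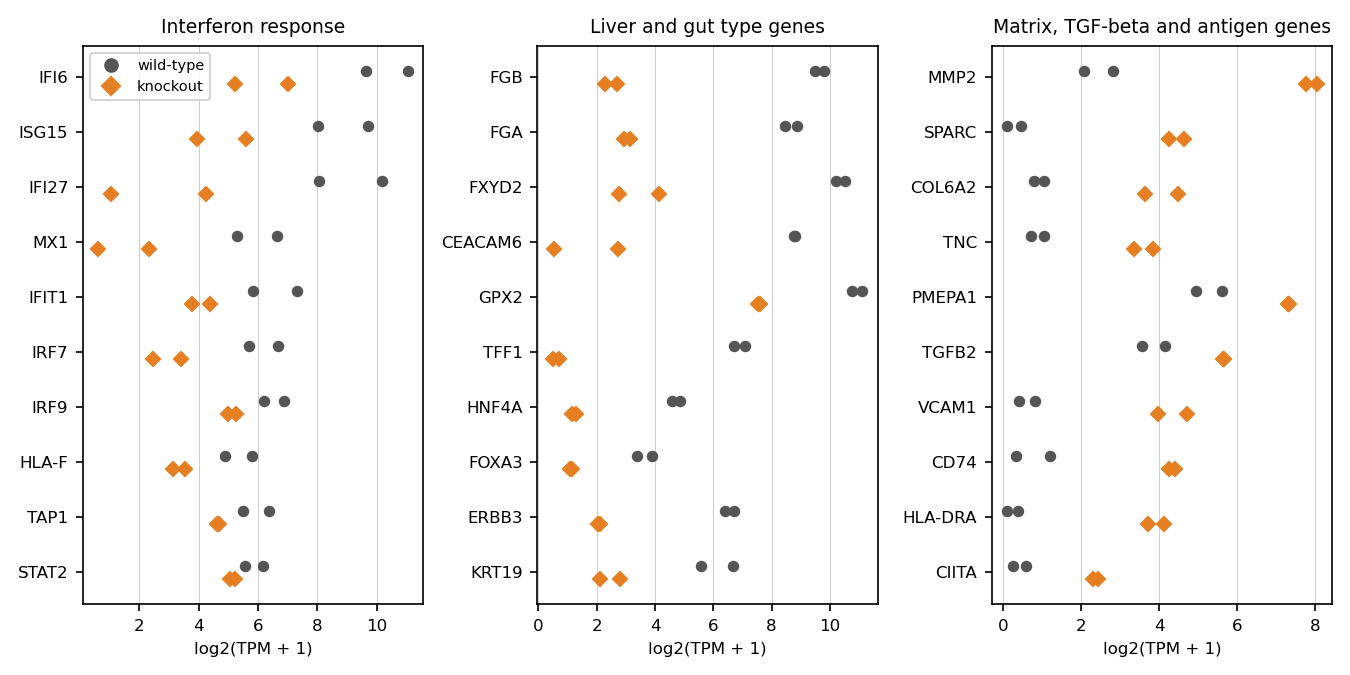
Level of 30 genes in each of the 4 A549 oncosphere libraries as log2(TPM + 1), circles for the wild-type and diamonds for the knockout-labelled libraries. The groups do not overlap for any of the 30 genes, which were mostly picked from those called. Over all genes 32.7% were apart upward and 27.8% downward. The spread between libraries of a group is wide for IFI27 and, in the knockout-labelled libraries, also for CEACAM6.

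Known Regnase-1 target mRNAs were not higher as a group. Of 27 listed, 22 were in the table, 1 was called higher and 4 lower, and the median was -0.33. TFRC, the transferrin receptor, was the one called higher, at 53.4 and 56.9 TPM in the wild-type libraries and 113 and 149 TPM in the knockout-labelled libraries (1.22 (SE 0.15, adjusted p = 0.0105)). PTGS2, the inducible cyclooxygenase, was lower at 320.1 and 239.6 TPM in the wild-type libraries and 103 and 88.6 TPM in the knockout-labelled libraries (-1.53 (SE 0.17, adjusted p = 0.00779)), and the neutrophil chemokines CXCL2 and CXCL3 fell from 151 and 106 and 177 and 118 TPM to 55.1 and 40.1 and 44.7 and 14.9 TPM. NFKBIZ and IL6 did not pass, with differences of 0.10 and 0.23. In the 12 chemokine genes measured 3 were lower and 1 higher (median -1.35). CXCL5 went from 2264 and 1818 to 593 and 275 TPM, and CXCL1 spanned 560.0 and 441 TPM in the wild-type libraries and 392 and 127 TPM in the knockout-labelled libraries with a difference of -1.15 that did not pass (adjusted p = 0.207). The atypical chemokine receptor ACKR3 was the member that rose, from 2.03 and 0.85 to 10.1 and 15.8 TPM. Beside the counts of both lists, 6.04% of all genes were called higher and 7.2% lower. In the fit with all 8 A549 libraries 8 chemokine genes were lower, and from 2 to 7 when 1 oncosphere library was left out of it. The Regnase-1 targets called lower in it numbered 8 without knockout replicate 1, against 5 with all libraries.

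Of 12 mRNA decay factors 3 were called: ZFP36 and ZFP36L2, which bind AU-rich elements, were lower and the paralog ZC3H12C was higher. ZFP36 was at 71.3 and 93.5 TPM in the wild-type libraries and 30.0 and 29.5 TPM in the knockout-labelled libraries (-1.43 (SE 0.15, adjusted p = 0.00719)) and ZC3H12C at 2.95 and 2.84 TPM in the wild-type libraries and 5.66 and 6.02 TPM in the knockout-labelled libraries. ZC3H12C no longer passed when the differences were centred on the median gene. Of 26 NF-kB pathway and feedback genes 1 was called, the adhesion molecule VCAM1, at 0.76 and 0.32 TPM in the wild-type libraries and 25.4 and 14.6 TPM in the knockout-labelled libraries (3.73 (SE 0.32, adjusted p = 0.00452)). NFKBIA and TNFAIP3, the feedback inhibitors, had differences of -0.41 and 0.25. Over all genes 6.04% were called higher and 7.2% lower, and a single call in lists of this size is near those shares.

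Matrix and mesenchymal genes were found among the highest. MMP2, a gelatinase, had the largest positive difference among called genes with at least 5 TPM in the higher group, at 3.23 and 6.01 TPM in the wild-type libraries and 219.8 and 263 TPM in the knockout-labelled libraries (5.47 (SE 0.26, adjusted p = 0.00194)). SPARC, a collagen-binding matricellular protein, was at 0.07 and 0.36 TPM in the wild-type libraries and 24.1 and 18.0 TPM in the knockout-labelled libraries (4.18 (SE 0.24, adjusted p = 0.00248)). TNC, COL5A1 and FSTL1 went from 1.08 and 0.65, 0.16 and 0.13 and 1.62 and 4.65 TPM to 13.5 and 9.34, 9.20 and 3.75 and 21.9 and 20.4 TPM. All 5 had both knockout-labelled libraries above both wild-type libraries, as had 32.7% of all genes. In the mesenchymal list of 36 measured genes 16 were higher and 6 lower, with a median of 0.65. The 6 that were lower included CCN2 (-1.91), NT5E (-1.67) and LOX (-1.05), so the list did not move one way. Vimentin, VIM, did not pass at 368 and 403 TPM in the wild-type libraries and 574 and 512 TPM in the knockout-labelled libraries (0.49 (SE 0.11, adjusted p = 0.0509)), and ZEB1 had 0.77 (adjusted p = 0.0547). Of 26 collagens and laminins 11 were higher and 4 lower. COL6A2 was at 0.72 and 1.06 TPM in the wild-type libraries and 21.4 and 11.4 TPM in the knockout-labelled libraries and COL6A1 at 4.22 and 4.64 TPM in the wild-type libraries and 24.9 and 23.9 TPM in the knockout-labelled libraries, and COL12A1 rose from 2.00 and 4.65 to 14.3 and 23.5 TPM. LAMB3, an epithelial laminin chain, fell by 2.21. In the joint A549 fit the mesenchymal genes called lower numbered 2 without knockout replicate 2 and 3 without wild-type replicate 1, and the collagens and laminins called lower 2 without knockout replicate 2.

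Metalloproteinases were split, with 4 of 20 higher and 2 lower. ADAMTS14 and ADAMTS12 were at 3.81 and 4.41 and 4.68 and 4.41 TPM in knockout-labelled libraries against 0.06 and 0.02 and 0.48 and 0.25 TPM, and MMP28 fell from 8.22 and 6.84 to 0.69 and 0.64 TPM. In the 19 integrin genes 4 were higher and 1 lower. For comparison with both lists, 6.04% of all genes were called higher and 7.2% lower. ITGA4, which pairs with beta-1 to bind VCAM1, rose from 0.03 and 0.54 to 7.62 and 9.51 TPM, ITGB5 from 178 and 159 to 328 and 396 TPM, and ITGA1 fell from 15.7 and 10.1 to 3.62 and 1.52 TPM. The integrins called higher in the joint A549 fit numbered 6, and 2 without knockout replicate 1 or without wild-type replicate 2.

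Of 23 TGF-beta pathway genes 9 were higher and none lower (median 0.69). PMEPA1, a feedback gene, was at 30.1 and 48.0 TPM in the wild-type libraries and 160.1 and 157 TPM in the knockout-labelled libraries (2.03 (SE 0.22, adjusted p = 0.0074)). The ligand TGFB2 was at 10.7 and 16.9 TPM in the wild-type libraries and 48.8 and 50.1 TPM in the knockout-labelled libraries and the latent binding protein LTBP2 at 5.22 and 5.66 TPM in the wild-type libraries and 15.2 and 12.2 TPM in the knockout-labelled libraries. Only 5 TGF-beta pathway genes were higher in the joint A549 fit without knockout replicate 2. In Wnt genes 6 of 18 were higher and 2 lower: SFRP5, a secreted antagonist, was at 0.09 and 0.11 TPM in the wild-type libraries and 16.6 and 7.53 TPM in the knockout-labelled libraries (3.48 (SE 0.37, adjusted p = 0.00694)), and LGR5 was at 0.54 and 0.20 TPM in the wild-type libraries and 3.13 and 3.33 TPM in the knockout-labelled libraries. RNF43, which removes Wnt receptors, was lower, 30.1 and 21.7 against 8.71 and 5.30 TPM. WNT6 was at 0.25 and 0.36 TPM in the wild-type libraries and 14.8 and 19.1 TPM in the knockout-labelled libraries, and BMPER, a BMP-binding protein, at 0.39 and 1.02 TPM in the wild-type libraries and 19.6 and 24.1 TPM in the knockout-labelled libraries.

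Epithelial genes were lower in part. Of 34, 18 were called lower and none higher, and the median was -1.01. Keratin 19, KRT19, was at 46.8 and 101 TPM in the wild-type libraries and 3.29 and 5.92 TPM in the knockout-labelled libraries (-3.68 (SE 0.42, adjusted p = 0.00819)), the tight junction claudin CLDN7 at 16.4 and 9.72 TPM in the wild-type libraries and 0.18 and 0.12 TPM in the knockout-labelled libraries, cingulin CGN at 17.2 and 8.09 TPM in the wild-type libraries and 1.51 and 1.27 TPM in the knockout-labelled libraries and EPCAM at 9.40 and 7.94 TPM in the wild-type libraries and 0.82 and 1.03 TPM in the knockout-labelled libraries. E-cadherin CDH1, KRT8 and KRT18 were not called, with differences of 0.27, 0.05 and 0.05 and levels of 84.5 and 79.0, 2499.7 and 3578 and 2406 and 3531 TPM in the knockout-labelled libraries. The E-box CACCTG (or CAGGTG), which ZEB and SNAI repressors bind, was in 18.8% of all promoters, 24.1% of those of genes called lower, 17% of those of genes called higher and 7 of 19 of the epithelial genes. In 28 stemness markers 4 were lower and 1 higher: KLF4, SALL4 and EPCAM among the former and LGR5 the latter. Over all genes 7.2% were called lower and 6.04% higher. SOX2 and ALDH1A1 had differences of -0.84 and -0.12 and CD44 0.45, none passing. In the fit with all 8 A549 libraries 7 of the 28 were lower and 4 higher.

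Among genes of MHC class II, which presents peptides to helper T cells, some were called higher and HLA-DMB lower, and no list was made of them. CD74, the invariant chain, was at 0.26 and 1.30 TPM in the wild-type libraries and 20.3 and 18.0 TPM in the knockout-labelled libraries (3.56 (SE 0.32, adjusted p = 0.00512)), and HLA-DRA at 0.07 and 0.30 TPM in the wild-type libraries and 16.6 and 12.2 TPM in the knockout-labelled libraries (3.69 (SE 0.24, adjusted p = 0.00281)). CIITA, the transactivator of class II, was looked up after its values were seen, at 0.50 and 0.18 TPM in the wild-type libraries and 3.96 and 4.38 TPM in the knockout-labelled libraries, and HLA-DPA1 and HLA-DPB1 rose from 0.27 and 0.43 and 0 and 0.50 TPM to 6.93 and 6.40 and 6.79 and 5.21 TPM. HLA-DMB went the other way, from 98.2 and 116 to 3.59 and 2.39 TPM (-4.77 (SE 0.19, adjusted p = 0.00164)). Summed leukocyte marker levels were lower over the same libraries, LYZ among them (18.6 and 6.81 to 0.28 and 0 TPM), and the part of cell mixing in the class II values was not tested.

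**Figure D3:**
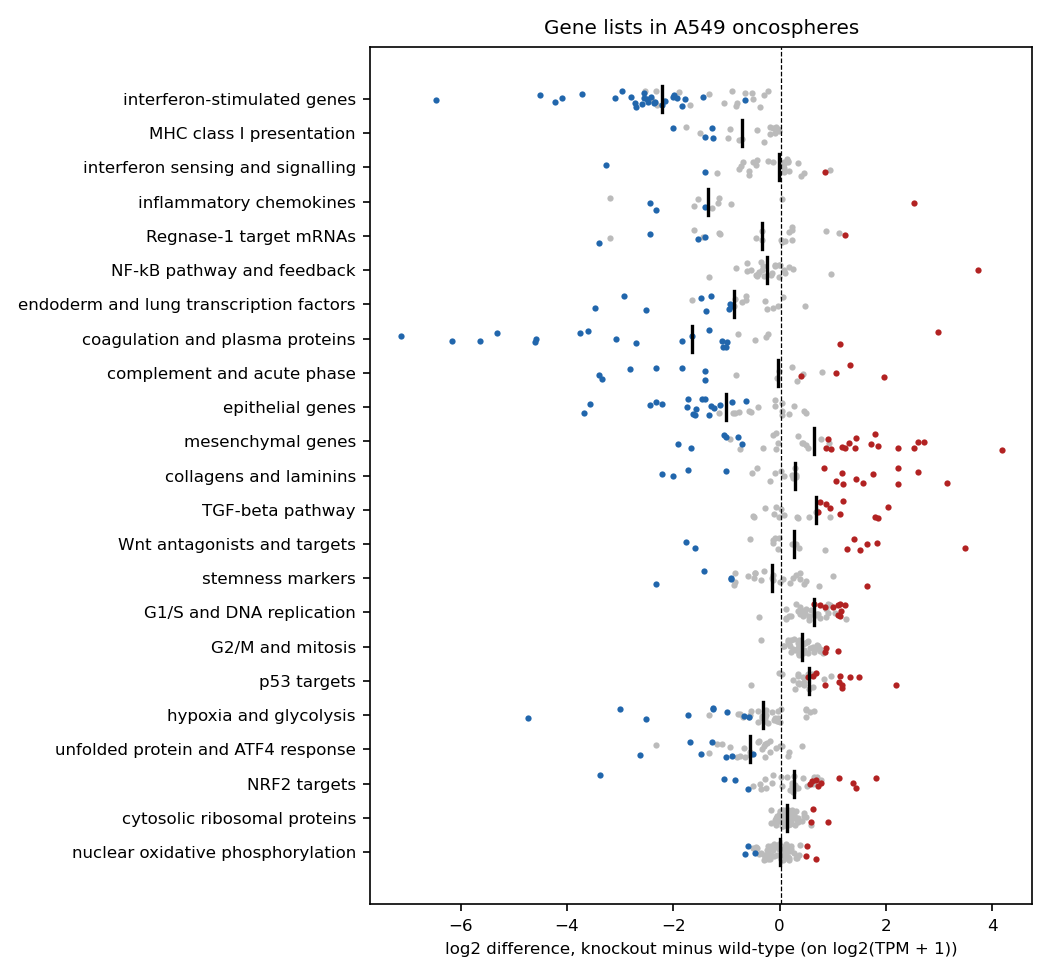
Log2 difference, knockout minus wild-type on log2(TPM + 1), of each member of 23 gene lists, red where called higher, blue where called lower and grey where not called, with the list's median as a black bar and the median of all genes (0.03) dashed. The interferon-stimulated genes lie wholly below 0 and the 23 coagulation genes mostly so, while the cell cycle lists lie above apart from 1 member each.

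Some replication genes were higher by small amounts, while most did not pass. Of 41 G1/S and DNA replication genes 10 were called higher and none lower, and 40 had positive differences (median 0.65). MCM6, of the replicative helicase, was at 6.97 and 11.3 TPM in the wild-type libraries and 20.6 and 24.0 TPM in the knockout-labelled libraries (1.23 (SE 0.24, adjusted p = 0.0329)), and RRM2, a ribonucleotide reductase subunit, at 22.6 and 27.4 TPM in the wild-type libraries and 49.6 and 63.6 TPM in the knockout-labelled libraries. GINS1 and UHRF1 rose from 4.39 and 6.53 and 5.79 and 7.73 TPM to 12.2 and 14.3 and 14.1 and 17.7 TPM. In 42 G2/M genes 3 were higher (median 0.42), a share near the 6.04% of all genes called higher: the topoisomerase TOP2A at 26.9 and 28.8 TPM in the wild-type libraries and 54.1 and 67.7 TPM in the knockout-labelled libraries, CDCA3 at 8.87 and 9.50 TPM in the wild-type libraries and 15.4 and 20.4 TPM in the knockout-labelled libraries and PBK at 17.2 and 19.0 TPM in the wild-type libraries and 28.5 and 38.9 TPM in the knockout-labelled libraries. Between 7 and 23 replication genes and 3 and 24 G2/M genes were called with 1 library left out of the fit with the normal-culture libraries, most without knockout replicate 1. Of 30 p53 targets 11 were higher and none lower: FAS was at 10.3 and 5.87 TPM in the wild-type libraries and 35.4 and 43.0 TPM in the knockout-labelled libraries, the CDK inhibitor CDKN1A at 102 and 66.9 TPM in the wild-type libraries and 238 and 229 TPM in the knockout-labelled libraries, ZMAT3 at 3.50 and 2.79 TPM in the wild-type libraries and 9.16 and 9.56 TPM in the knockout-labelled libraries and EDA2R at 7.08 and 5.37 TPM in the wild-type libraries and 14.1 and 16.3 TPM in the knockout-labelled libraries. MDM2 was not called (0.36, adjusted p = 0.226). The p53 targets called higher in the joint A549 fit numbered 7 without knockout replicate 2.

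Hypoxia and glycolysis genes were lower in 9 of 40 cases and higher in none (median -0.31). CA9, a carbonic anhydrase induced by low oxygen, was at 82.8 and 77.0 TPM in the wild-type libraries and 3.49 and 1.03 TPM in the knockout-labelled libraries (-4.74 (SE 0.38, adjusted p = 0.00399)). NDRG1 fell from 79.5 and 178 to 14.6 and 13.3 TPM, ALDOC from 22.6 and 38.7 to 7.93 and 2.16 TPM and EGLN3 from 26.1 and 34.8 to 7.38 and 9.61 TPM. VEGFA and LDHA did not pass, with -0.11 and -0.04. The first wild-type library exceeded the second in 6 of these 40 genes. Of 33 unfolded protein and ATF4 genes 7 were lower, CHAC1 (32.9 and 16.8 TPM in the wild-type libraries and 4.01 and 2.19 TPM in the knockout-labelled libraries), TRIB3 (301 and 204 TPM in the wild-type libraries and 88.1 and 66.6 TPM in the knockout-labelled libraries), VLDLR (31.5 and 22.7 TPM in the wild-type libraries and 10.2 and 7.94 TPM in the knockout-labelled libraries) and XBP1 (353 and 357 TPM in the wild-type libraries and 176 and 122 TPM in the knockout-labelled libraries) most. The ATF4 target ASNS, which makes asparagine, was at 266 and 73.4 TPM in the wild-type libraries and 33.5 and 22.1 TPM in the knockout-labelled libraries, and its difference of -2.32 did not pass (SE 0.60, adjusted p = 0.0652). In the joint A549 fit 12 unfolded protein and ATF4 genes were lower, and with 1 library left out 5 (without knockout replicate 2) to 15 (without wild-type replicate 2).

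NRF2 targets were mixed, with 9 of 40 higher and 4 lower. GPX2, a glutathione peroxidase of gut, was at 2201 and 1745 TPM in the wild-type libraries and 185 and 193 TPM in the knockout-labelled libraries (-3.37 (SE 0.14, adjusted p = 0.00172)), against 1753 and 1574 TPM in the wild-type libraries and 4440.0 and 4595 TPM in the knockout-labelled libraries for AKR1B1. HMOX1 was at 30.0 and 37.2 TPM in the wild-type libraries and 73.5 and 105 TPM in the knockout-labelled libraries. UGT1A6 and UGT1A7 share their last exons with the other UGT1A genes, and their values of 26.4 and 20.9 and 61.6 and 48.0 TPM in the knockout-labelled libraries, against 7.41 and 4.84 and 2.97 and 4.76 TPM, are uncertain for that reason. Of 29 UGT, ALDH and P450 genes 4 were higher and 7 lower, ALDH1L1 rising from 0.71 and 0.23 to 7.55 and 8.54 TPM and ALDH1L2 falling from 31.9 and 15.6 to 6.13 and 3.23 TPM. In the immediate early and ERK feedback list 6 of 29 were higher and 5 lower: DUSP5 and FOSL2 rose from 11.7 and 15.5 and 36.7 and 39.1 TPM to 45.5 and 44.7 and 90.9 and 119 TPM, and AREG fell from 35.2 and 27.1 to 11.9 and 5.18 TPM. ERBB3, the kinase-impaired partner of ERBB2, was at 104 and 84.1 TPM in the wild-type libraries and 3.33 and 3.10 TPM in the knockout-labelled libraries (-4.49 (SE 0.16, adjusted p = 0.00104)). In the joint A549 fit the NRF2 targets called higher numbered 3 without knockout replicate 2 and 4 without wild-type replicate 2, and those called lower 2 without either knockout replicate or without wild-type replicate 1. The immediate early and ERK feedback genes called higher in it numbered 3 without knockout replicate 1 or without wild-type replicate 1, and those called lower 2 without knockout replicate 2 and 3 without either wild-type replicate.

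Cholesterol genes were called at a rate near that of all genes. Of 33 cholesterol and fatty acid genes 2 were higher and 2 lower, among them ACLY, which makes cytosolic acetyl-CoA, at a difference of 0.60 and PMVK, of the mevalonate pathway, at -0.53. None of 13 mitochondrially encoded genes was called (median -0.21), and 3 of 66 nuclear oxidative phosphorylation genes were higher and 3 lower, NDUFV2, NDUFS4 and UQCRC2 among the lower and ATP5MC3, NDUFB3 and NDUFA10 the higher. Of 77 ribosomal protein genes 3 were called higher, RPL37A and RPS9 among them at 0.63 and 0.58, although many have processed copies that share reads. None of the ribosomal protein genes was called in the joint A549 fit when any 1 oncosphere library was left out. From 0 (without wild-type replicate 1) to 6 (without wild-type replicate 2) of the cholesterol and fatty acid genes were then higher, and from 1 to 4 lower. Nuclear oxidative phosphorylation genes called lower in that fit numbered 6, and 1 without wild-type replicate 1.

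Other genes of the top group had no list. NPY4R and NPY4R2 are near-identical copies of a neuropeptide Y receptor on chromosome 10 and counts could be split between them. They were at 92.5 and 114 and 39.5 and 51.3 TPM in knockout-labelled libraries against 1.38 and 4.32 and 0.96 and 1.46 TPM in wild-type libraries. SCG2, a granin of secretory granules, was at 0.97 and 0.83 TPM in the wild-type libraries and 35.6 and 67.0 TPM in the knockout-labelled libraries (4.72 (SE 0.32, adjusted p = 0.00298)) and the carboxypeptidase CPA4 at 0.40 and 1.00 TPM in the wild-type libraries and 12.7 and 25.9 TPM in the knockout-labelled libraries. Among genes averaging at least 200 TPM, PRSS23 was at 31.3 and 38.4 TPM in the wild-type libraries and 243 and 503 TPM in the knockout-labelled libraries, NAMPT at 185 and 117 TPM in the wild-type libraries and 662 and 518 TPM in the knockout-labelled libraries and the cholesterol-binding NPC2 at 96.3 and 84.0 TPM in the wild-type libraries and 304 and 352 TPM in the knockout-labelled libraries. 

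By position, genes of chromosome 2 beyond 90 Mb were higher as a group, a boundary chosen after the values along the chromosome were seen. Of 557 genes from there on with a mean of at least 1 TPM, 29.6% were called higher and 5.21% lower, with a median difference of 0.41. Of 381 genes before it 6.56% were called higher and 5.77% lower, with a median of 0.02. On the other chromosomes 6.16% of 13498 genes were called higher and 8.16% lower, with a median of 0.03, and the shares called higher ran from 2.33% to 9.08% between chromosomes. In windows of 10 Mb with at least 20 genes, the 15 windows from 90 Mb on had medians of 0.26 to 0.66 and the 9 before it of -0.09 to 0.14. Elsewhere 142 of 228 windows had a positive median. Of the 20 highest windows of the genome 15 were on chromosome 2. Windows elsewhere were raised too. That of chromosome 9 from 10 to 20 Mb (20 genes) had a median of 0.53 in oncosphere and 0.41 in normal culture. That of chromosome 19 from 50 to 60 Mb (154 genes) had 0.37 in oncosphere and 0.33 in normal culture. That of chromosome 12 from 60 to 70 Mb (42 genes) had 0.31 in oncosphere but -0.12 in normal culture. Of the 16 windows with an oncosphere median of at least 0.3, 13 were on chromosome 2. The whole chromosome held 195 of the 1100 genes called higher (17.7%) and 6.52% of the genes tested. ATP5MC3, NDUFB3, RPL37A, MCM6, ITGA4, ACKR3, SCG2, WNT6, UGT1A6 and UGT1A7, given above, were among the higher genes beyond 90 Mb. VIL1 and TM4SF20 were among the lower ones there. Apart from chromosome 2, 905 genes were called higher and 1252 lower. In normal culture, in other libraries of the same clone, the median was 0.34 beyond 90 Mb and -0.08 before it, against -0.08 on the other chromosomes. In H2023 oncospheres, a different clone, these medians were -0.25, -0.14 and 0.08. Copy number was not measured, and whether the difference by position belongs to the edit or the clone cannot be told apart.

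**Figure D4:**
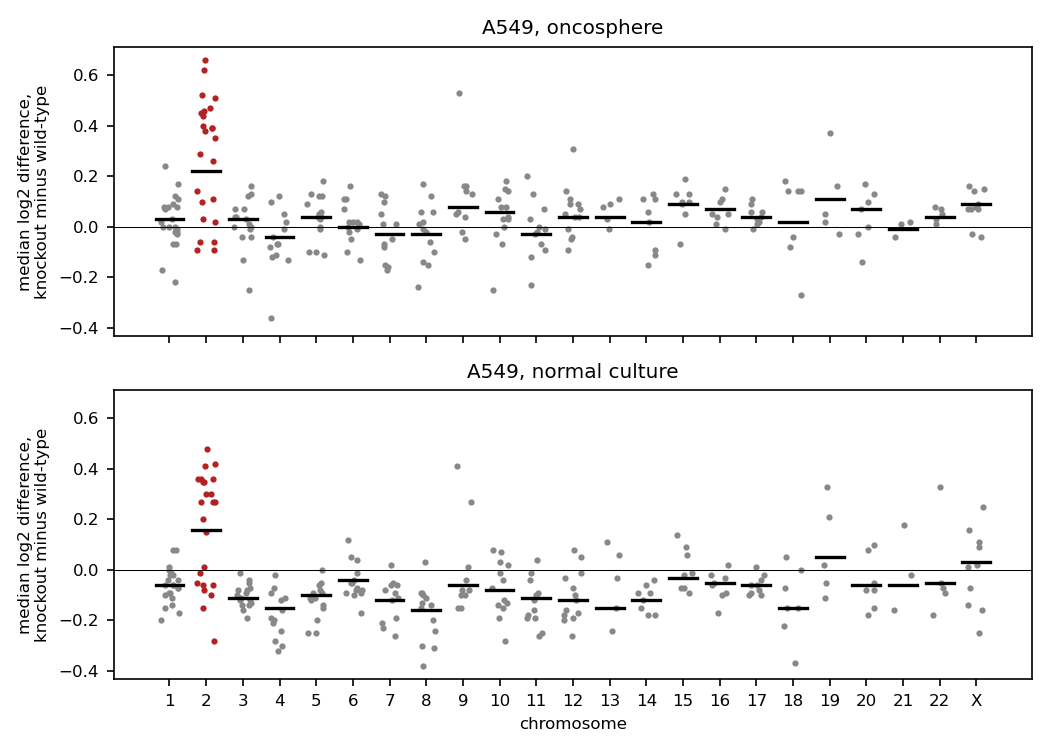
Median log2 difference, knockout minus wild-type on log2(TPM + 1), of genes in windows of 10 Mb (points) and of all genes with a mean of at least 1 TPM (bars) by chromosome, in A549 oncosphere and normal culture. Chromosome 2, in red, has the highest bar in both, 0.22 and 0.16.

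Differences between the cultures were tested in 1 fit of 8 A549 libraries. Each library was scaled to its own TPM total. A gene's knockout difference was called unlike between cultures in 1212 of 18227 genes (6.65%), 642 higher in oncosphere (3.52%) and 570 lower (3.13%). In normal culture alone 1971 were called (10.8%), 827 higher (4.54%) and 1144 lower (6.28%). With 1 oncosphere library left out, the genes unlike between cultures numbered 531 without knockout replicate 1, 266 without knockout replicate 2 and 476 without wild-type replicate 1. Of the interferon-stimulated genes 20 of 45 had a lower difference in oncosphere than in normal culture and none a higher one, and their normal-culture median was 0.05. IFI27 had wild-type levels of 1.40 and 1.36 TPM in normal culture and an interaction of -6.35 (SE 1.39, adjusted p = 0.0387). CA9 was reversed: in normal culture it was higher in the knockout, 29.6 and 57.5 against 3.11 and 4.87 TPM, with an interaction of -7.85 (adjusted p = 0.00279). NDRG1 likewise went from 18.6 and 27.5 to 134 and 148 TPM there, with -5.59 (adjusted p = 0.00291). TFF1 and TF were at 1.10 TPM or less in all normal-culture libraries and had interactions of -5.91 and -4.95. Of the 40 hypoxia and glycolysis genes 18 were lower in oncosphere than in normal culture by this test, and 16 were called higher in normal culture.

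Genes whose knockout difference was higher in oncosphere than in normal culture included CD74 (interaction 4.68), SCG2 (4.20), HLA-DRA (3.84), SFRP5 (3.76) and CXCL1 (3.64). CXCL1 was lower in the knockout in normal culture, 348 and 427 against 17.2 and 9.73 TPM, and its oncosphere difference was smaller (3.64, SE 0.66, adjusted p = 0.0245). Of 41 replication genes 18 had a higher difference in oncosphere and none a lower one, with a normal-culture median of -0.43. FXYD2, FGB and MMP2 had differences of -8.48, -6.80 and 4.69 in normal culture, and none of their interactions passed. Over 13606 genes with at least 1 TPM the 2 differences correlated at r = 0.542, a description across genes in 2 sets of libraries of 1 clone. Of the genes called in oncosphere 740 (30.7%) were also called in normal culture, or 37.5% of its calls, 714 in the same direction and 26 in the opposite one.

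**Figure D5:**
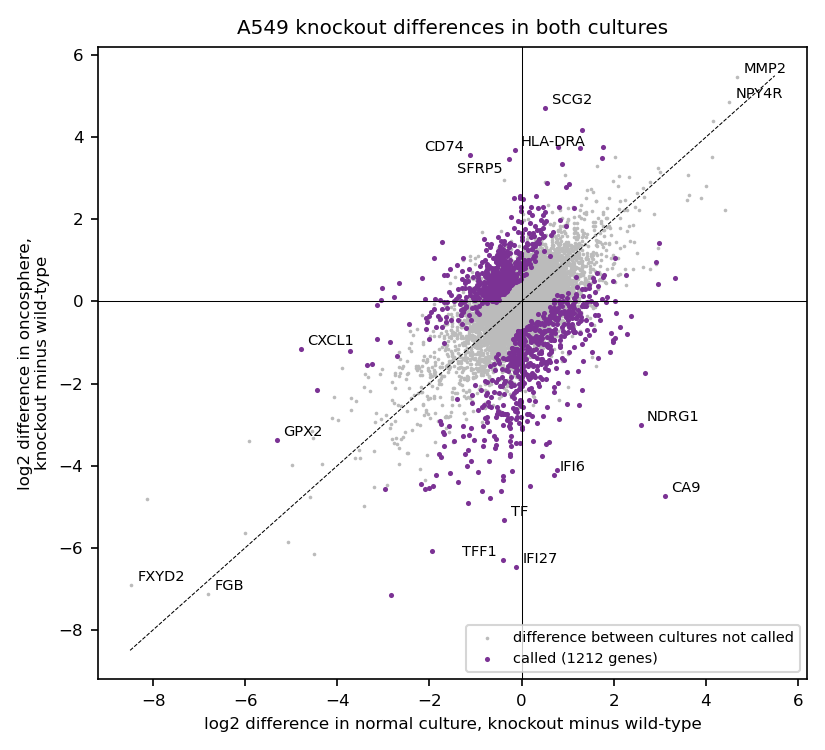
Log2 difference, knockout minus wild-type, of each gene in A549 normal culture (x) and oncosphere (y), both on log2(TPM + 1), with the 1212 genes whose difference was called unlike between cultures in purple and the line of equal difference dashed. CA9 and NDRG1 lie in the lower right, higher in normal culture and lower in oncosphere.

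Between lines, the A549 and H2023 oncosphere differences were called unlike in 1795 genes (9.85%), 1062 higher in H2023 (5.83%) and 733 lower (4.02%). That count was 984 without A549 knockout replicate 1, 655 without A549 knockout replicate 2 and 797 without A549 wild-type replicate 1. In H2023 itself limma called 0 genes (0%), while 2828 had an unadjusted p under 0.05, so a gene absent from its calls is not shown to be unaffected there. CEACAM6 was at 18.8 and 209 TPM in H2023 knockout-labelled libraries against 4.28 and 16.9 TPM in wild-type libraries, a line difference of 9.89 (SE 1.63, adjusted p = 0.0125). FXYD2, IFI27, LCN2 and TFF1 also had line differences upward, of 9.17, 7.24, 6.58 and 6.49. LCN2 was at 1281 and 2849 TPM in H2023 knockout-labelled libraries against 183 and 239.9 TPM in wild-type ones, while in A549 it was lower. HPD, an enzyme of tyrosine breakdown, was at 1.88 and 5.45 TPM in H2023 knockout-labelled libraries against 89.6 and 106 TPM in H2023 wild-type libraries and rose from 1.06 and 1.12 to 11.1 and 18.7 TPM in A549 (-7.40, adjusted p = 0.00112). SCG2, NPY4R, NPY4R2 and ITGA4 had the other lowest line differences, -7.35, -6.21, -5.41 and -5.25. ZC3H12A differed in the same test, at 94.6 and 69.2 TPM in H2023 knockout-labelled libraries against 32.5 and 26.4 TPM in wild-type libraries (1.19, adjusted p = 0.0241). Of the interferon-stimulated genes 22 of 45 had a higher difference in H2023 and none a lower one.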

How the data were processed

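RNA of A549 oncospheres (4 libraries in 2 groups of 2, stranded TruSeq mRNA per the labels' protocols) was used as TPM values made by the authors, and HISAT2, StringTie and GRCh38 are named in the submitters' processing notes. The annotation and the roles of these tools are not given in the sources used here. The deposited table also has a normalized mean count, a signal column, whose sum over genes was 20453740. It was used for nothing else, and the read depth of each library is unknown. Of 18361 rows 119 identifiers occurred on several rows with identical values, leaving 18227 genes. Names came from the table for 15590 genes and from a list of gene names for 2575, and GENCODE 29 (GRCh38) gave positions for 17996. Values were log2 of TPM plus 1 and tested with limma 3.58.1 in R 4.3.3 (trend, no filter, two-sided, Benjamini-Hochberg, 0.05), which was tested on simulated data. Interactions used 8 libraries. Lists of genes, 30 without marker checks, were described by counts and medians, with no set test. Members and lists were chosen with earlier results of these data known. Named were ZC3H12A, the 12 highest and lowest called genes with at least 5 TPM in the higher group, up to 4 called members of each list and its defining members, the 5 highest and lowest with a mean of at least 200 TPM, and the 5 highest and lowest differences between cultures and between lines. Alternatives were pseudocounts of 0.1 and 5, a filter, no trend, centring, removal of mitochondrial genes, a joint A549 fit, a replicate block and leaving out each library. Promoters were RefSeq sequences (GRCh38.p14). Results for some genes are not reported here.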

Additional observations from a re-analysis of the deposited data

Results flagged for a closer look

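Knockout differences that were unlike between A549 cultures, by the interaction test, are given as oncosphere minus normal. CA9 (-7.85), IFI27 (-6.35), TFF1 (-5.91), NDRG1 (-5.59) and TF (-4.95) were lower in oncosphere, and CD74 (4.68), SCG2 (4.20), HLA-DRA (3.84), SFRP5 (3.76) and CXCL1 (3.64) higher. ZC3H12A was also higher, by 1.04.

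Differences that were unlike between the oncospheres of the 2 lines are H2023 minus A549. HPD (-7.40), SCG2 (-7.35), NPY4R (-6.21), NPY4R2 (-5.41) and ITGA4 (-5.25) were lower in H2023. CEACAM6 (9.89), FXYD2 (9.17), IFI27 (7.24), LCN2 (6.58), TFF1 (6.49) and ZC3H12A (1.19) were higher. No sample was tested as an outlier, since each group held 2 libraries.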

How the results depend on the processing

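When 1 library is left out, the direction of a called gene is nearly fixed in advance. All 2413 genes called that were tested under an alternative kept their direction in each. The count was 2391 and 2243 with pseudocounts of 0.1 and 5, 2737 with at least 1 TPM in at least 2 libraries, 2107 without the trend, 2397 after centring, 2377 without mitochondrially encoded genes, 3548 with all 8 A549 libraries in the fit and 2774 with the replicate block. Leaving out 1 library gave 0 to 38 calls, with 1 residual degree of freedom and the lone library assumed to vary like the other group. In the joint A549 fit, chosen after seeing the data, leaving out 1 library gave 1786 to 2843. Without 1 A549 oncosphere library, genes unlike between cultures numbered 266 to 971 and genes unlike between lines 655 to 1289. The replicate block gave 2757 genes unlike between lines. The labels do not say whether same-numbered libraries shared a batch. Their deviations correlated at 0.124 across 14547 genes. In wild-type and knockout-labelled libraries the first exceeded the second in 44 and 42 of 45 interferon-stimulated genes. For 41 G1/S and DNA replication genes these counts were 4 and 2, and for 33 cholesterol and fatty acid genes 2 and 25. Whether a batch was shared was not tested. ZC3H12A did not pass under any setting, at 0.18 to 0.30. Of 124 other named genes 112 kept their call without the trend, 119 without mitochondrial genes and 122 with the replicate block. Most of them did not keep it when 1 library was left out of the fit of the 4 oncosphere libraries, while most kept it in the joint A549 fit with 1 library left out.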
